A study of Mus musculus with 9 samples.

Results

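Forkhead genes encode transcription factors that bind DNA through a shared winged helix domain. The genes described here were all the probe sets of the array whose single gene symbol is a forkhead name from Foxa to Foxs, with Foxc1 and Foxc2 left out. This rule used no measured value, and it gave 79 probe sets of 35 genes out of 45037 probe sets and 18193 genes on the array. The genes belonged to 16 subfamilies, 15 of them had 1 probe set and 20 had several, up to 8 for Foxp1. For all 79 probe sets the Entrez identifier led to the same symbol in RefSeq, and 2 further probe sets that carried several symbols, among them a forkhead name, were left out.

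RNA was measured in micromass cultures, dense spots of mesenchymal cells plated from the sclerotome of wild type mouse embryos at E11.5. The sclerotome is the ventral part of the somite from which vertebrae and intervertebral discs arise, and it was taken from below the neural tube after the notochord had been removed. The 9 arrays were 3 of untreated cultures, 3 of cultures given 50 ng/ml BMP4 and 3 of cultures given 5 ng/ml TGF-β1, both for 8 hours. By the labels treatment began after a night in culture, by the culture methods it began shortly after plating, and the experiment was set up 3 times. For each array 50 ng of total RNA was amplified.

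The family is divided into lettered subfamilies by sequence, and its members range from pioneer factors that open chromatin (Foxa) to factors that insulin signalling holds outside the nucleus (Foxo). In the axial skeleton, Foxf1 and Foxf2 are known as mesenchymal targets of hedgehog signals, and Foxa2 marks the notochord and the floor plate that send those signals. Foxp1, Foxp2 and Foxp4 bind DNA as dimers with one another, act mostly as repressors and are known to act in cartilage and bone formation. Foxh1 is a partner of the Smad proteins that carry nodal and activin signals. Smad proteins also carry the BMP and TGF-β signals.

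The genes with a changed probe set were 6 (Foxp1, Foxp2, Foxp4, Foxd1, Foxn2 and Foxk2). The table of RefSeq start regions at hand (GRCm38.p6) held 4 of them, all but Foxp2 and Foxn2. Each window runs from 250 bases before to 50 after a transcription start. Windows of Foxp1, which has 3 starts in the table, Foxp4 and Foxd1 are shown because these genes carried the falls. The motifs searched on both strands were the Smad box CAGAC (read as GTCTG where it lies on the other strand), the GC-rich Smad site GGCGCC (the same on both strands) and the forkhead motif TGTTTAC (read as GTAAACA where it lies on the other strand). Capitals mark their matches, of which each window shown held at most 1.
Foxp1 chr6:99028249-99028548, minus strand: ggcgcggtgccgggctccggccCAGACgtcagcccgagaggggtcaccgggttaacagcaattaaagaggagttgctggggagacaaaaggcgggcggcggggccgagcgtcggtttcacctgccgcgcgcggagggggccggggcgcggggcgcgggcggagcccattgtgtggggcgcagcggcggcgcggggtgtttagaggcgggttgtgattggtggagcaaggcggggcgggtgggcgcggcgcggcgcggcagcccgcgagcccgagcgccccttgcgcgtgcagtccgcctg
Foxp1 chr6:99266466-99266765, minus strand: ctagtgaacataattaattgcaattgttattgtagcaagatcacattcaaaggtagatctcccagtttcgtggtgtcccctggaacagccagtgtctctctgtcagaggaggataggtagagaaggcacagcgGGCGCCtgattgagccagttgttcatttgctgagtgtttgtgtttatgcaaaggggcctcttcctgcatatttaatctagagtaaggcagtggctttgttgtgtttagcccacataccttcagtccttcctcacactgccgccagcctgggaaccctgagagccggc
Foxp1 chr6:99520944-99521243, minus strand: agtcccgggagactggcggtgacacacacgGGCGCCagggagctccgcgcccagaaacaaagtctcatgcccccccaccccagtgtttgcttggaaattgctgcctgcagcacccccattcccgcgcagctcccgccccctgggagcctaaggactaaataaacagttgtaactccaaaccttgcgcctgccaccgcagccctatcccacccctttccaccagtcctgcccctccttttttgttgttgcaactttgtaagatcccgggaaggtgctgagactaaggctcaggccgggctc
Foxp4 chr17:47924583-47924882, minus strand: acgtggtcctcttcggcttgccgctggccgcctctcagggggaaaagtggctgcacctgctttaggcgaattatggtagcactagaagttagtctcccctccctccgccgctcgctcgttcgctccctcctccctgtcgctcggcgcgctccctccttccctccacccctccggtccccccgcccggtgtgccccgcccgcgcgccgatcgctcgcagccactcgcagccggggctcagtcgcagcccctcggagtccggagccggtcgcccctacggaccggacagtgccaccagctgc
Foxd1 chr13:98353995-98354294, plus strand: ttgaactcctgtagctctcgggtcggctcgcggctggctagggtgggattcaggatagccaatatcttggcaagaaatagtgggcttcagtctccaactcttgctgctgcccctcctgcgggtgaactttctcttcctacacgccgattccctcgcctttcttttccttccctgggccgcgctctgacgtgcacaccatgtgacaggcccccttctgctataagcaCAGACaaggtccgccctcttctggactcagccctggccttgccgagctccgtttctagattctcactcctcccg
The Smad box stood in 1 window of Foxp1 and in the window of Foxd1, and the GC-rich site stood in the other Foxp1 windows, while the window of Foxp4 held none of the 3 motifs. The windows differed in base composition, with a GC content of 75.3%, 48.7% and 60.3% for Foxp1, 70.3% for Foxp4 and 57.7% for Foxd1. Among all 32851 windows of the table, 49.6% held the Smad box, 11.9% the GC-rich site and 3.65% the forkhead motif. Of the 28 windows of 23 forkhead genes, 9 (32.1%) held the Smad box, 4 (14.3%) the GC-rich site and 1 (3.57%) the forkhead motif. A match is a description of letters only.

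All values are log2 signals centred on each probe set's own median over the 9 arrays, so they show differences between arrays and not how much RNA of a gene was present. Levels of different genes were therefore not compared, and the absence of a cell type's markers could not be judged. A probe set was called changed at an adjusted p under 0.05 (limma, all probe sets), in a fit without the replicate number. Where the number entered the fit as a term, the text speaks of the replicate block. Errors are SE unless SD is written, and in whole cultures fewer cells of a type cannot be told apart from less RNA per cell. The arrays had similar spreads, with SDs of all centred values from 0.177 to 0.258, and no array was left out. Over the 9 arrays the median range of a forkhead gene was 0.565 log2 units, against 0.532 over all genes, and the median residual SD was 0.152 against 0.143.

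With BMP4, the changes among forkhead genes lay mostly in the Foxp subfamily. Foxp1, Foxp2 and Foxp4 fell, Foxd1 fell and Foxn2 rose, whereas no other gene had a called probe set without the replicate block. In all, 15 of 79 probe sets were called (19%), against 5.44% of all probe sets, and 14 of the 15 were lower, where 3.13% of all probe sets were called lower. Of these 15 probe sets, 13 belonged to Foxp1, Foxp2 and Foxp4, and probe sets of 1 gene measure the same RNA. By genes, with the most variable probe set standing for each, 5 of 35 were called (14.3%), against 7.96% of all genes. The BMP4 arrays did not overlap with the untreated arrays for 9 of 35 genes, while 23.1% of all genes showed no overlap. The median difference of the 35 genes was -0.00 and that of all genes was 0.00.

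**Figure D1:**
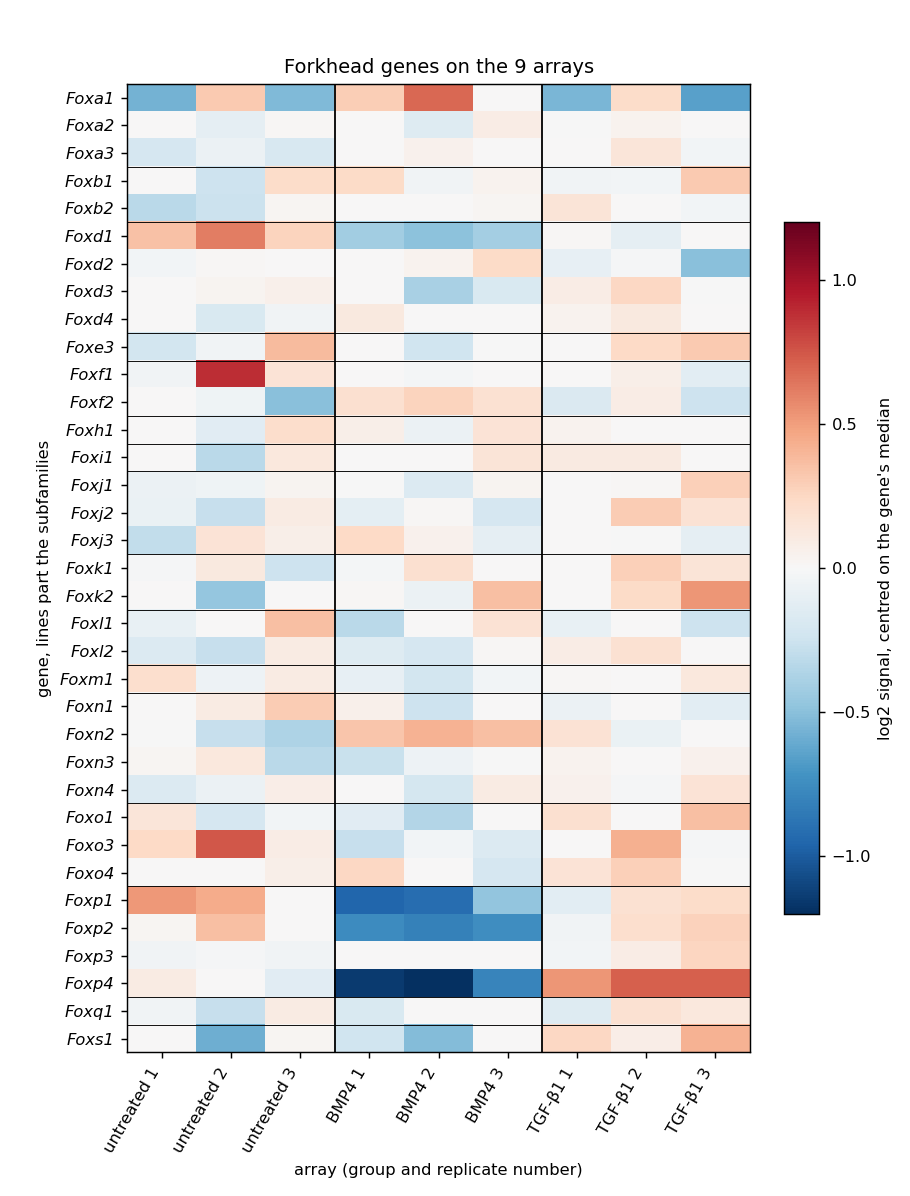
Centred log2 signal of the 35 forkhead genes (rows, the most variable probe set of each, thin lines between subfamilies) on the 9 arrays (columns, by group and replicate number). Foxp1, Foxp2 and Foxp4 form the darkest blue block, on the 3 BMP4 arrays, and Foxp4 is red on the 3 TGF-β1 arrays.

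Foxp4, a repressor known from the foregut and lung, had the widest differences of the family. Its most variable probe set, 1431088_at, read 0.10, 0.00 and -0.13 on the untreated arrays. It read -1.15, -1.29 and -0.79 on the BMP4 arrays, and 0.53, 0.71 and 0.72 on the TGF-β1 arrays. The 3 groups did not overlap, with BMP4 lowest and TGF-β1 highest. The fall with BMP4 was -1.07 ± 0.13 (2.09-fold, adjusted p = 0.0013), and the adjusted p was 0.0084 or lower without any single array. A further probe set, 1429719_at, fell by 1.17 ± 0.14 (adjusted p = 0.0015). The remaining one, 1431437_at, had a difference of -0.27 ± 0.16 (adjusted p = 0.45), and its BMP4 arrays (-0.75, -0.27 and -0.03) overlapped with the untreated ones (0.00, 0.01 and -0.23).

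Foxp1, a repressor needed for B cell and heart development, had 8 probe sets, and all 8 were lower with BMP4, by -0.61 to -1.10. The most variable one, 1438802_at, read 0.52, 0.44 and 0.00 on the untreated arrays and -0.95, -0.91 and -0.48 on the BMP4 arrays. On the TGF-β1 arrays it read -0.12, 0.19 and 0.22. All BMP4 values lay below all others, the lowest of which was TGF-β1 replicate 1. The difference with BMP4 was -1.10 ± 0.17 (2.15-fold, adjusted p = 0.0045). Of the 8 probe sets, 7 were called, and the other one, 1421141_a_at, had -0.61 ± 0.21 (adjusted p = 0.14).

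Some of these Foxp1 calls rested on single arrays. The call of 1421142_s_at (-0.69, adjusted p = 0.048), whose suffix marks probes shared between transcripts, was lost without any array but untreated replicate 3 (adjusted p up to 0.16). That of 1435222_at was lost without untreated replicate 1 or 2 or BMP4 replicate 1 (up to 0.057). That of 1443258_at was lost without untreated replicate 1 or 2 or BMP4 replicate 1 or 2 (up to 0.11). The other 4 kept an adjusted p of 0.036 or lower without any single array. Without all 3 arrays numbered 2, the call of 1438802_at was lost too (-0.98, adjusted p = 0.086).

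Foxp2, known for its part in brain circuits of speech and in lung development, fell on 4 of its 6 probe sets. Probe set 1438231_at read 0.02, 0.36 and 0.00 on the untreated arrays and -0.76, -0.81 and -0.75 on the BMP4 arrays. On the TGF-β1 arrays it read -0.04, 0.20 and 0.27. The BMP4 arrays lay close together and well below the other 6. Its fall was -0.90 ± 0.11 (1.86-fold, adjusted p = 0.0018), and 1438232_at (-0.92 ± 0.10, adjusted p = 7e-04) and 1458191_at (-0.77 ± 0.11, adjusted p = 0.0029) were close to it. For these 3 the call held without any single array (adjusted p up to 0.015). The call of 1440108_at (-0.82 ± 0.20, adjusted p = 0.041) was lost without untreated replicate 1 or 2, any BMP4 array or TGF-β1 replicate 1 (up to 0.14). The probe sets 1422014_at (-0.65 ± 0.17, adjusted p = 0.060) and 1441365_at (-0.18 ± 0.09, adjusted p = 0.35) were not called.

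Foxp3, the factor of regulatory T cells, completed the subfamily. Its difference with BMP4 was 0.03 (95% interval -0.15 to 0.21), with TGF-β1 0.14 (-0.05 to 0.32), and neither was called. On the ranking of all 18193 genes by their difference with BMP4, Foxp1 had the 144th largest fall, Foxp4 the 153rd and Foxp2 the 219th.

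**Figure D2:**
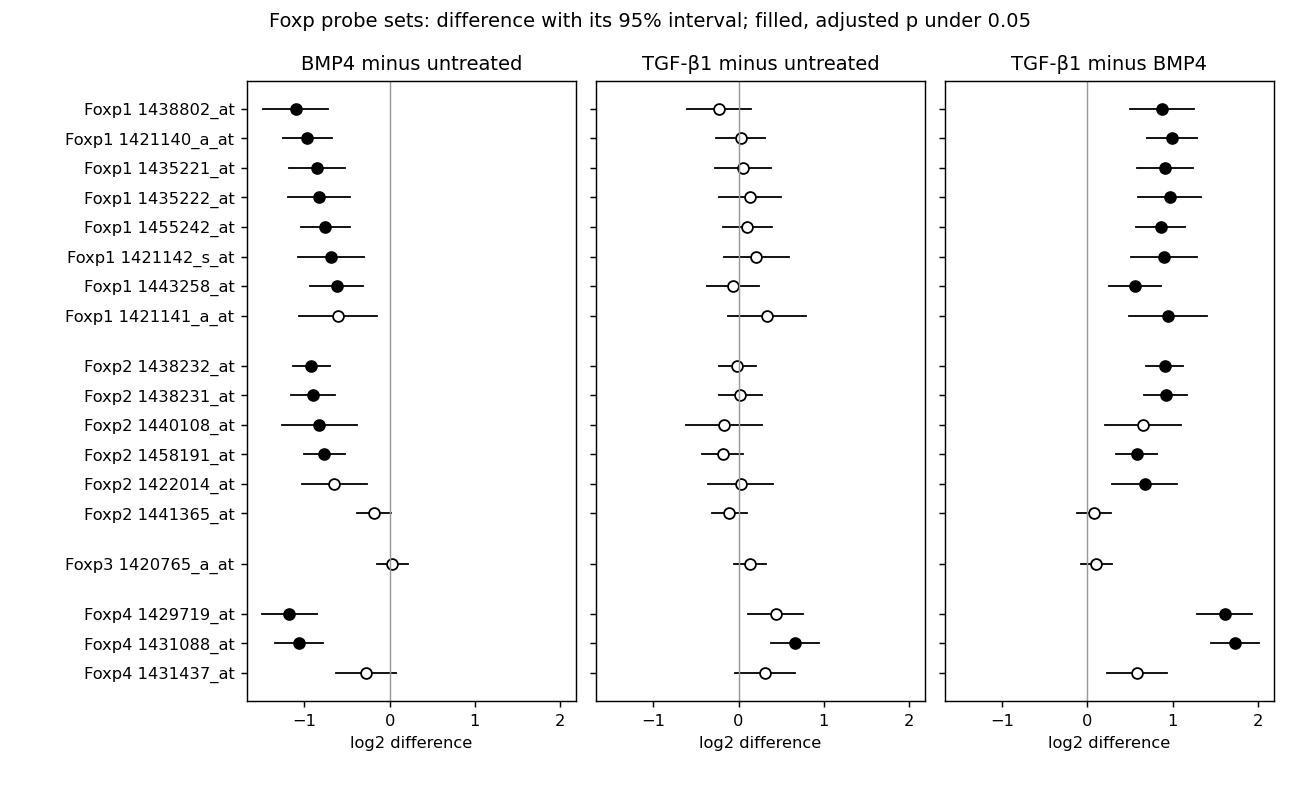
Log2 difference with its 95% interval for the 18 Foxp probe sets (rows) in the 3 comparisons (panels), filled where the adjusted p was under 0.05. With BMP4 13 of the 18 are filled, all to the left of 0, with TGF-β1 1 is filled, and between TGF-β1 and BMP4 14 are filled, all to the right of 0.

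Foxd1, a gene of kidney stroma and retina precursors, changed in each comparison. It read 0.36, 0.61 and 0.26 on the untreated arrays, -0.41, -0.49 and -0.41 on the BMP4 arrays, and 0.01, -0.10 and 0.00 on the TGF-β1 arrays. The 3 groups did not overlap, and TGF-β1 lay between the others. The fall with BMP4 was -0.85 ± 0.10 (1.80-fold, adjusted p = 9e-04) and kept its call without any single array (adjusted p up to 0.0054). It was the 257th largest fall of all genes.

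Foxd2 (0.10), Foxd3, a neural crest factor (-0.22), and Foxd4 (0.11) were not called with BMP4, with adjusted p of 0.78, 0.33 and 0.54.

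Foxn2, a less studied gene, was called higher with BMP4, the sole forkhead gene so called without the replicate block. Its probe set 1454831_at read -0.01, -0.27 and -0.37 on the untreated arrays, 0.34, 0.41 and 0.36 on the BMP4 arrays, and 0.17, -0.08 and 0.00 on the TGF-β1 arrays. All 3 BMP4 arrays lay above the other 6. The rise was 0.58 ± 0.10 (1.5-fold, adjusted p = 0.010) and kept its call without any single array (up to 0.045), but not without all 3 arrays numbered 2 (0.53, adjusted p = 0.12). Its other probe set, 1441138_at, had 0.16 ± 0.13 (adjusted p = 0.64). Foxn1, the thymus epithelium factor, Foxn3 and Foxn4 ran from -0.20 to 0.10 and were not called.

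**Figure D3:**
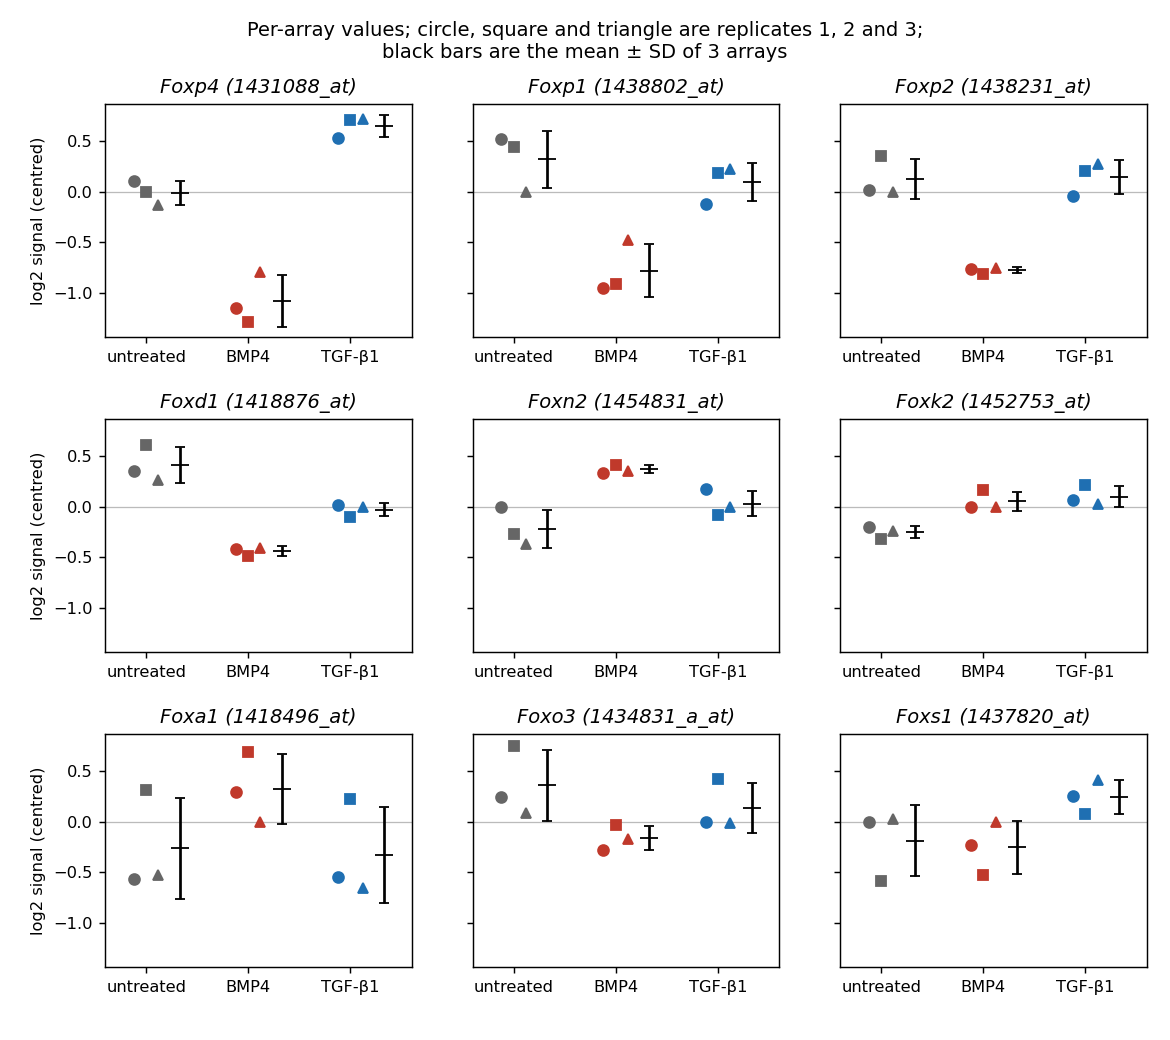
Centred log2 signal (y axis) on each array of 9 forkhead genes, 1 panel per gene, by group (x axis), with the replicate number as circle (1), square (2) or triangle (3) and the mean ± SD of 3 arrays as a bar. The top row shows the BMP4 arrays of Foxp4, Foxp1 and Foxp2 below all others, and the bottom row shows Foxa1 and Foxo3, whose squares are the highest of each group, and Foxs1, whose squares are the lowest.

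Markers of sclerotome and of other tissues moved in the same comparison. Of 8 sclerotome markers, 6 fell with BMP4, among them Meox1 (-1.61 ± 0.13), Uncx (-1.38 ± 0.14) and Pax1 (-1.17 ± 0.25), with a list median of -0.81. Of notochord markers 1 of 4 rose (Krt19, 1.61 ± 0.35) and 1 fell (Krt18, -1.29 ± 0.15), which is also the 1 of 4 epithelial markers that fell. Of neural tube markers 1 of 6 rose (Sox2, 1.44 ± 0.20) and 1 fell (Nes, -0.47 ± 0.11), and of muscle markers 1 of 6 rose (Myf5, 0.83 ± 0.11). Among 3 neural crest, 5 endothelial and 5 blood markers 0 were called by limma (0, 1 and 1 at an unadjusted p under 0.05). The part of these shifts in the forkhead results was not tested, and with centred values their summed levels could not be given.

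With TGF-β1, few forkhead genes changed. Of 79 probe sets 3 were called (3.8%), against 4.43% of all probe sets, and 2 of 35 genes (5.71%), against 6.75% of all genes. Foxp4 rose, Foxd1 fell, and the third was a probe set of Foxk2 that was not its most variable one. The arrays did not overlap for 4 of 35 genes, while 25.9% of all genes showed no overlap. The median difference was 0.12 for the 35 genes and 0.01 for all genes. The same untreated arrays served both growth factors.

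Foxp4 rose by 0.66 ± 0.13 with TGF-β1 on 1431088_at (1.59-fold, adjusted p = 0.018). This was the 271st largest rise of all genes. The call was lost without untreated replicate 2 or 3 or TGF-β1 replicate 2 or 3 (adjusted p up to 0.076). The other probe sets had 0.44 ± 0.14 (1429719_at, adjusted p = 0.13) and 0.31 ± 0.16 (1431437_at, adjusted p = 0.33), and on both every TGF-β1 array lay above every untreated array. Foxp1 and Foxp2 differed from untreated by -0.23 to 0.33 and by -0.19 to 0.02 over their probe sets, with 0 called at either gene by limma and 0 at an unadjusted p under 0.05.

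Foxd1 fell by 0.44 ± 0.10 (1.36-fold, adjusted p = 0.031) with TGF-β1. This call was lost without untreated replicate 1 or 2, BMP4 replicate 1 or any TGF-β1 array (adjusted p up to 0.095), and without the 3 arrays numbered 2 (-0.30, adjusted p = 0.17).

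Foxk2, which with Foxk1 binds the Sin3 repressor complex, had 5 probe sets that were all higher with TGF-β1, by 0.14 to 0.41. Probe set 1452753_at read -0.20, -0.32 and -0.24 on the untreated arrays, -0.00, 0.17 and 0.00 on the BMP4 arrays, and 0.06, 0.22 and 0.02 on the TGF-β1 arrays. Both treated groups lay above the untreated arrays and overlapped with each other. The rise with TGF-β1 was 0.35 ± 0.08 (1.28-fold, adjusted p = 0.046), and that with BMP4 was 0.30 ± 0.08 (adjusted p = 0.069). The TGF-β1 call was lost without any array but BMP4 replicate 2 (adjusted p up to 0.13). Foxk1 ran from -0.09 to 0.19 with TGF-β1 and was not called.

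With the replicate number as a block, 5 forkhead probe sets were called with TGF-β1, 4 higher and 1 lower, against 8.95% of all probe sets. The 2 that joined were 1428354_at of Foxk2 (0.33, adjusted p = 0.037 with the block and 0.11 without) and Foxs1, known from neurons and vessel walls. Foxs1 read 0.00, -0.59 and 0.03 on the untreated arrays, -0.23, -0.52 and 0.00 on the BMP4 arrays, and 0.25, 0.08 and 0.41 on the TGF-β1 arrays. In each group replicate 2 was lowest. Its difference was 0.43 ± 0.18 (adjusted p = 0.23, and 0.021 with the block).

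Set directly against BMP4, TGF-β1 gave higher values at Foxp1, Foxp2, Foxp4 and Foxd1. Of 79 probe sets 15 were called (19%), against 6.91% of all probe sets. All 15 were higher with TGF-β1, where 3.41% of all probe sets were called higher. They belonged to Foxp1 (8 of 8 probe sets), Foxp2 (4 of 6), Foxp4 (2 of 3) and Foxd1. By genes 4 of 35 were called (11.4%), against 10.1% of all genes. The arrays did not overlap for 11 of 35 genes, while 30% of all genes showed no overlap. The median difference was 0.11 for the 35 genes and 0.01 for all genes.

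Foxp4 was 3.32-fold higher with TGF-β1 than with BMP4 (1.73 ± 0.13, adjusted p = 6.1e-05), the 36th largest rise of all genes, and on 1429719_at it was 1.61 ± 0.14 higher (adjusted p = 1.7e-04). On 1431437_at the difference was 0.58 ± 0.16 (adjusted p = 0.057, and 0.041 with the block). Foxp1 was higher by 0.56 to 0.99 over its 8 probe sets, led by 1421140_a_at (0.99 ± 0.13, adjusted p = 0.0014). Its most variable probe set, 1438802_at, had 0.88 ± 0.17 (adjusted p = 0.012), which was lost without BMP4 replicate 1 or 2 or TGF-β1 replicate 3 (up to 0.058).

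Foxp2 was higher by 0.92 ± 0.11 on 1438231_at (adjusted p = 0.0011). On 1440108_at it was higher by 0.65 ± 0.20, which was called with the block alone (adjusted p = 0.089, and 0.033 with the block). Single arrays decided the calls of 1421141_a_at and 1443258_at of Foxp1 and of 1422014_at of Foxp2, which were lost without any 1 of BMP4 replicate 1 or 2 or a TGF-β1 array (adjusted p up to 0.086, 0.14 and 0.14). The last of these was also lost without untreated replicate 3 or BMP4 replicate 3, and 1443258_at without untreated replicate 1 or BMP4 replicate 3. Foxd1 was higher by 0.41 ± 0.10 (adjusted p = 0.030), a call lost without any single BMP4 or TGF-β1 array (up to 0.11). Of the sclerotome markers 4 of 8 were higher with TGF-β1 than with BMP4, led by Meox1 (2.14 ± 0.13), or 6 of 8 with the block, and their part in these differences was not tested. Markers of other tissues were called without the block too. Krt18, in the notochord and epithelial lists, was higher (1.79 ± 0.15), as was 1 of 6 neural tube markers. Lower were 1 of 6 neural tube, 1 of 6 muscle, 2 of 3 neural crest and 1 of 5 blood markers. Of 5 endothelial markers 0 were called by limma. The part of these markers was not tested either. With the block the muscle gene Pax3 (-0.33, adjusted p = 0.044) and the epithelial gene Epcam (0.51, adjusted p = 0.031) were called as well (0.41 and 0.082 without it).

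With the block, 21 forkhead probe sets were called between TGF-β1 and BMP4, 19 higher and 2 lower, against 11.7% of all probe sets. By genes 8 of 35 were called with the block, against 16.8% of all genes. Foxa1, an endoderm pioneer factor, was lower with TGF-β1 by 0.66 on the log2 scale (difference -0.66 ± 0.29, adjusted p = 0.24, and 0.0033 with the block). It read -0.57, 0.32 and -0.53 on the untreated arrays, 0.29, 0.69 and 0.00 on the BMP4 arrays, and -0.55, 0.22 and -0.65 on the TGF-β1 arrays. The groups overlapped, and replicate 2 was highest in each. The others that joined were Foxn2 (-0.34 ± 0.10, adjusted p = 0.093 and 0.048), Foxs1 (0.50 ± 0.18, 0.15 and 0.0084) and 1416981_at of Foxo1 (0.35 ± 0.13, 0.16 and 0.031), each without and with the block.

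**Figure D4:**
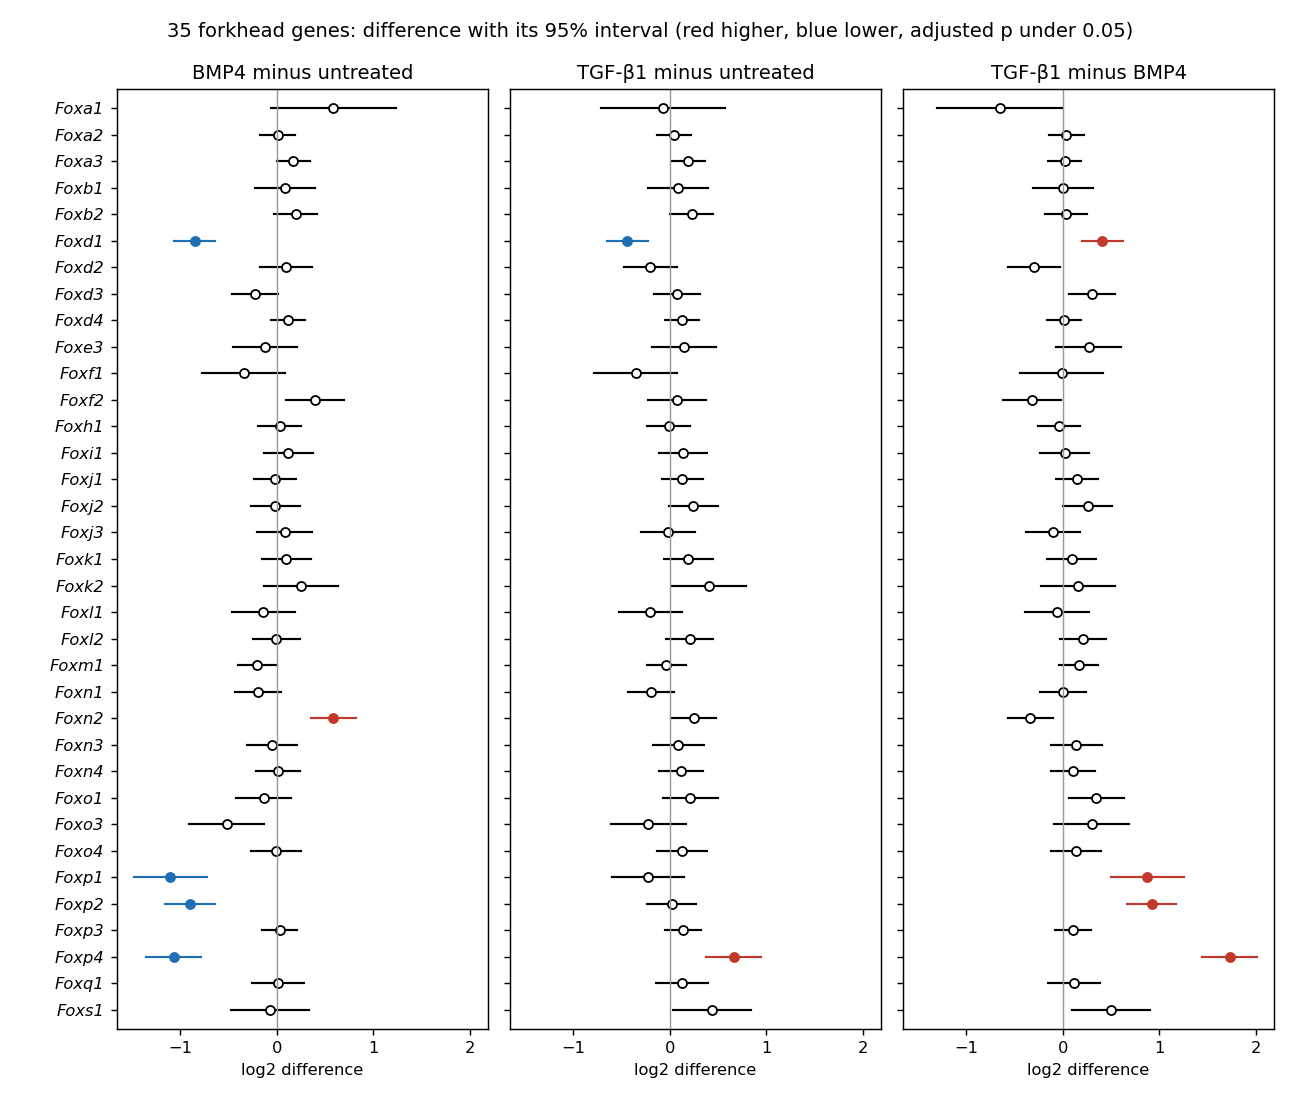
Log2 difference with its 95% interval (x axis) of the 35 forkhead genes (rows, most variable probe set) in the 3 comparisons (panels), red for higher and blue for lower at an adjusted p under 0.05. With BMP4 4 genes are blue and 1 is red, with TGF-β1 1 is blue and 1 is red, and between TGF-β1 and BMP4 4 are red.

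Without the block the remaining 29 genes had no called probe set in any comparison, and 12 of the 16 subfamilies, with 21 genes and 39 probe sets, had none. Differences of these 29 genes ran from -0.52 (Foxo3) to 0.59 (Foxa1) with BMP4 and from -0.35 (Foxf1) to 0.43 (Foxs1) with TGF-β1. The 95% intervals reached 0.24 log2 units to either side at the median and 0.64 at the widest, which sets the precision at 3 arrays per group without the block. Of their 54 probe sets, 4 had an unadjusted p under 0.05 with BMP4, 3 with TGF-β1 and 8 between the treatments. Among the last, Foxd2 (1442315_at, -0.30 ± 0.12, adjusted p = 0.20) and Foxf2 (1418220_at, -0.32 ± 0.14, adjusted p = 0.22) read lower on every TGF-β1 array than on any BMP4 array. On their other probe sets the groups overlapped. The differences there were -0.03 at Foxd2 (1450289_at) and 0.19, in the other direction, at Foxf2 (1447562_at).

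Foxf1 and Foxf2, the mesenchymal targets of hedgehog signals, were not called. On 1434939_at of Foxf1 the untreated arrays read -0.04, 0.89 and 0.16, and both treated groups stayed between -0.13 and 0.07. Untreated replicate 2 alone was high, and the differences were -0.34 ± 0.19 with BMP4 and -0.35 ± 0.19 with TGF-β1 (adjusted p = 0.43 and 0.36). Foxf2 (1418220_at) read 0.00, -0.05 and -0.50 on the untreated arrays and 0.19, 0.26 and 0.18 on the BMP4 arrays. It differed by 0.40 ± 0.14 with BMP4 (adjusted p = 0.15) and by 0.08 ± 0.14 with TGF-β1 (adjusted p = 0.82). The other probe sets, 1 for each gene, lay between -0.08 and 0.11 in these comparisons. Among 12 hedgehog pathway genes, Ihh (2.26 ± 0.17), its receptor and target Ptch1 (1.11 ± 0.18) and Gli1 (0.97 ± 0.17) rose with BMP4, and Gli2 and Gas1 fell. The list median was -0.08, against 0.00 for all genes. With TGF-β1 0 were called by limma, with 3 at an unadjusted p under 0.05 and 2 lower with the block. Between TGF-β1 and BMP4 2 of them were higher and 3 lower, and the block added Gli3 (0.57, adjusted p = 0.13 without and 0.0067 with it).

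Foxa2, the notochord gene, read between -0.15 and 0.09 on all 9 arrays, with differences of 0.01 and 0.04 (95% intervals -0.17 to 0.19 and -0.14 to 0.22). Foxa3, a liver factor, had 0.17 and 0.19 (adjusted p = 0.29 and 0.21), and on both treatments every array lay above every untreated one. Foxb1 and Foxb2, genes of the embryonic brain, differed from untreated by at most 0.23. Of the notochord markers 1 of 4, Krt19, rose with TGF-β1 (1.68 ± 0.35). Among the other markers, the macrophage gene Cd68 was called with TGF-β1 without the block (-0.46 ± 0.09). The block added 7 calls, of the sclerotome gene Pax1 (-0.51, adjusted p = 0.31 without and 0.026 with the block), the neural genes Dcx (-0.57, 0.11 and 0.019) and Sox2 (0.49, 0.23 and 0.034), the muscle genes Myf5 (-0.42, 0.062 and 0.0094), Pax7 (-0.43, 0.13 and 0.021) and Myod1 (-0.37, 0.053 and 0.033), and the neural crest gene Ngfr (-0.49, 0.078 and 0.033).

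The Foxo genes, which insulin signals restrain through Akt, had no call on 9 probe sets in any comparison without the replicate block. Foxo3 (1434831_a_at) read 0.24, 0.75 and 0.08 on the untreated arrays, -0.28, -0.04 and -0.17 on the BMP4 arrays and 0.00, 0.43 and -0.01 on the TGF-β1 arrays. The BMP4 arrays lay below the untreated ones, and replicate 2 was highest in each group. The difference was -0.52 ± 0.17 with BMP4 (adjusted p = 0.14). Foxo1 (1416981_at) had -0.13 ± 0.13 with BMP4 and 0.21 ± 0.13 with TGF-β1 (adjusted p = 0.70 and 0.42). Its difference between TGF-β1 and BMP4, given above, was called with the block (adjusted p = 0.031). In that comparison its probe sets 1416982_at (0.28) and 1416983_s_at (0.14) were higher, and 1456529_at was lower (-0.21). None of these was called with the block (adjusted p = 0.065, 0.44 and 0.18). On the probe sets of Foxo4 the differences lay between -0.10 and 0.13.

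Of 20 genes known as FoxO targets, 1 rose and 2 fell with BMP4, led by the endothelial factor Klf2 (1.19 ± 0.15) and the stress genes Gadd45a (-0.49 ± 0.11) and Cdkn1a (-0.38 ± 0.08). With TGF-β1, 2 fell, Sesn1 (-1.04 ± 0.22) and Gadd45a (-0.62 ± 0.11), or 7 with the block, and between TGF-β1 and BMP4, 2 were lower (Klf2 and Cat), or 5 lower and 1 higher with the block. The list medians were -0.09 with BMP4 and -0.12 with TGF-β1, against 0.00 and 0.01 for all genes. Of 12 regulators of FoxO proteins, Pik3ca was called without the block, higher with BMP4 (0.69 ± 0.13) and lower with TGF-β1 than with BMP4. The Akt pathway gene Pik3r1 had a larger difference with TGF-β1, -0.84 ± 0.31, which was called with the block (adjusted p = 0.17 without and 0.022 with it). With BMP4 it had -0.87 ± 0.31 (adjusted p = 0.16 without the block, and with it in the closing section). Untreated replicate 2 read 1.49, against 0.29 and 0.21 on the other untreated arrays.

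Foxm1, a driver of mitotic genes, had differences of -0.20 to -0.02 with BMP4 over 4 probe sets and -0.08 to -0.01 with TGF-β1, none called. Of 15 of its known targets 0 were called by limma with BMP4 (3 at an unadjusted p under 0.05), and 1 fell with TGF-β1 (Ccnb2, -0.41 ± 0.07), or 4 with the block. Between TGF-β1 and BMP4 0 were called (2 at an unadjusted p under 0.05), or 1 lower with the block. The list median was -0.10 with BMP4 and -0.23 with TGF-β1. Foxh1 stayed near 0, with differences of -0.02 to 0.03 with BMP4 and -0.01 to 0.06 with TGF-β1 over 3 probe sets. Of 10 partners of Foxh1 and nodal targets, Mixl1 (1.14 ± 0.17) and Tdgf1 (0.37 ± 0.09) rose and Smad3 (-1.18 ± 0.11) fell with BMP4, and Smad3 fell with TGF-β1 as well (-0.61 ± 0.11). Between TGF-β1 and BMP4 1 of them was higher and 2 were lower.

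Of 9 protein partners and linked factors of the Foxp group, the corepressor Ctbp2 (0.37 ± 0.08) and Nkx2-1 (0.28 ± 0.07) rose with BMP4. In the other comparisons 0 were called by limma (3 with TGF-β1 and 1 between the treatments at an unadjusted p under 0.05). Foxj1, the regulator of motile cilia, had -0.02 and 0.13, and 0 of 11 motile cilia genes were called by limma in any comparison (0 with BMP4, 4 with TGF-β1 and 2 between them at an unadjusted p under 0.05, and 2 lower with TGF-β1 under the block). Of 10 partners of Foxk and Foxj proteins 0 were called as well (0, 2 and 1 at an unadjusted p under 0.05). With the block the corepressor Sin3a was called lower with TGF-β1 than untreated (-0.36, adjusted p = 0.085 without and 0.033 with it) and than with BMP4 (-0.36, 0.067 and 0.026). The Foxe, Foxi, Foxl and Foxq genes had differences of -0.14 to 0.12 with BMP4 and -0.20 to 0.21 with TGF-β1 on all their probe sets.

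The arrays numbered 2 stood apart at some of the genes. Replicate 2 was the highest of its group in all 3 groups at Foxa1, Foxa3, Foxk1 and Foxo3, 4 of 35 genes (11.4%), against 11.2% of all genes. It was lowest in all 3 at Foxm1, Foxo1 and Foxs1, 3 of 35 (8.57%), against 10.5% of all genes. None of these 7 genes was called without the block.

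For the Foxc genes, which the rule left out, the same comparisons gave the following values. Without the block, Foxc1 had -0.56 ± 0.20 with BMP4 (adjusted p = 0.17) and Foxc2 0.30 ± 0.11 (adjusted p = 0.21). The closing section gives the values of this comparison with the block. Between TGF-β1 and BMP4, Foxc2 was lower by 0.46 ± 0.11 on the log2 scale (difference -0.46, adjusted p = 0.039), and Foxc1 differed by 0.57 ± 0.20 (adjusted p = 0.14, and 0.0062 with the block). Whether they differed from the Foxp genes was not tested.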

How the data were processed

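The 9 arrays (Affymetrix mouse expression arrays) hold 3 untreated, 3 BMP4 and 3 TGF-β1 cultures, grouped by their labels. The authors subtracted background and normalised with RMA, and the deposited log2 values were centred on each probe set's median (45101 medians at 0, tolerance 1e-06). Signal over background was thus lost and no filter on low signal was possible. The 64 control probe sets were left out. Symbols came from the platform annotation (34945 probe sets with 1 symbol, 932 with several, 9160 with none), and the most variable probe set stood for a gene.

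The comparisons used limma 3.58.1 (R 4.3.3), with 1 model of 3 groups over 9 arrays and moderated variances (6 residual and 4.01 prior degrees of freedom), two-sided, with Benjamini-Hochberg adjustment over 45037 probe sets. The script was tested on simulated data. Figures were drawn with matplotlib 3.10.9.

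The study set the experiment up 3 times. The labels number the replicates, and the sources do not state that a number marks a repeat. Deviations from the group means of arrays with the same number correlated at 0.14 to 0.49 for TGF-β1 and untreated and at 0.29 to 0.50 for TGF-β1 and BMP4, each over the required 0.1, and at -0.05 to 0.50 for BMP4 and untreated. By the limit of 0.1 for every pair, the block is given in the report for both comparisons with TGF-β1, and for BMP4 in the closing section.

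Named genes were those with a called probe set, those with unadjusted p under 0.05 and no overlap, and 10 genes of known pathways. The forkhead genes, partner lists and marker lists were chosen with earlier results of these data known. Alternatives were the block, fewer arrays or groups, other scaling and weights, and the methods' t-test.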

Additional observations from a re-analysis of the deposited data

How the results depend on the processing

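Directions held under every alternative run, and 18 of the 33 probe set calls over the 3 comparisons held under all 15 alternatives tried on single probe sets, while 12 were lost without at least 1 single array. Centring each array on its median changed nothing, as every array median was already 0. Of the 79 forkhead probe sets, limma called 15 with BMP4 and 15 between TGF-β1 and BMP4. Of the same 79, the methods' t-test called 0 and 0 after Benjamini-Hochberg adjustment (18 and 17 at an unadjusted p under 0.05). At the methods' threshold of 2-fold and unadjusted p the counts were 3 and 2, and limma with at least 2-fold called 3 and 2. Without single arrays the limma counts of 15 and 15 ran from 11 to 15 and from 10 to 16.

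The count of 3 of 79 probe sets called with TGF-β1 became 0 under the methods' t-test (8 of 79 at an unadjusted p under 0.05). It was also 0 at the methods' threshold, at 2-fold and without the arrays numbered 2. In a fit of the 2 groups alone it was 1, and without single arrays it ran from 0 to 3. The 2 genes called became 0 without the arrays numbered 2 and 1 in the fit of the 2 groups, with 0 to 2 without single arrays. The 4 genes called between TGF-β1 and BMP4 ran from 2 to 4 without single arrays. The causes were not tested, beyond the fewer arrays and the variance estimated per probe set that these settings use.

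With the replicate block the TGF-β1 count was 5 probe sets, and 8 genes were called between TGF-β1 and BMP4. For BMP4, 1 of 3 correlations missed the limit for pairing, although the arrays may share repeats in the same way. There the block called 18 forkhead probe sets in place of 15 (9.03% of all probe sets) and 7 genes in place of 5 (13.1% of all genes). It added Foxa1 (adjusted p = 0.0070), Foxo3 (0.013) and a probe set of Foxp2 (0.0095). Outside the 35 genes, it called Foxc1 (0.0081 and 0.034 on its probe sets) and Pik3r1 (0.018) lower with BMP4, and not Foxc2 (0.11). FoxO targets gave 2 rises and 3 falls, with Bnip3 (0.0045) and Sesn3 (0.012) added. Hedgehog genes gave 3 rises and 3 falls, with Gli3 added (0.0031). Sclerotome markers gave 7 falls, with Pax9 added (0.014). Neural tube markers gave 1 rise and 2 falls, and endothelial markers 1 rise. The other lists kept their counts.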
